A study of Mus musculus with 2 samples.

Results

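The heat-shock chaperone mRNAs of mouse fetal liver cells were followed through erythroid differentiation. The 8 genes described are Hspa8, Hspa1b, Hsp90aa1, Hsp90ab1, Hspa9, Hspd1, Hspe1 and Hspa5, chosen by symbol, and all 8 were found among the 27998 genes of the count table. Of these, 7 had at least 500 UMIs over the stages compared, and Hspa1b had 21. A UMI is a molecular identifier, so 1 UMI stands for 1 captured mRNA molecule. Hspa8 and Hsp90 proteins work in the cytosol and Hspa9, Hspd1 and Hspe1 in mitochondria. Hspa5 is the Hsp70 of the endoplasmic reticulum, so it does not belong to either of those compartments.

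The cells were dissociated from livers of C57BL/6 embryos at e13.5, for which the labels name no treatment and no genetic change. Cells carrying Ter119 were depleted with magnets, and as many of them as of the remaining cells were then mixed back in. The cell numbers of the stages therefore do not give their shares in the liver. Livers of several embryos were pooled, and 1 cDNA library (10x Genomics, 3′ ends) and 1 antibody library (CITE-seq, in which barcoded antibodies report surface proteins) were made from the same cells. Ter119 appears on maturing erythroid cells and CD71, the transferrin receptor, rises and later falls as they mature. The stages were cut from these antibodies in cells with low counts of the 5 antibodies to other lineages: S0-low, S0-medium and S1 have low Ter119 and rising CD71, S2 has intermediate Ter119 and high CD71, S3 has high Ter119 and high CD71, and S4/S5 has high Ter119 and low CD71.

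Chaperones bind unfolded or unstable proteins and help them to fold. Hsp70 proteins bind short exposed stretches in cycles driven by ATP, Hsp90 proteins act later on near-native clients such as kinases and hormone receptors, and Hspd1 (Hsp60) with its lid Hspe1 (Hsp10) forms a folding chamber in the mitochondrial matrix. Erythroid precursors make very large amounts of haemoglobin, need iron-sulphur cluster and haem synthesis in mitochondria, and lose their organelles at the end of maturation. In this lineage HSP70 is known to protect the transcription factor GATA1, and HSPA9 is known for its part in iron-sulphur cluster assembly.

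After quality filters 7244 of 7863 cells were kept, 6424 had low lineage antibodies and 6208 fell into a stage. The stages held 612 to 1510 cells, with a median depth of 3949 to 10282 UMIs per cell. Globin mRNA took 1.05% of the UMIs in S0-low, 1.39% at S0-medium, 2.80% in S1, 13.1% in S2, 37.6% in S3 and 64.0% in S4/S5, in the order that the antibodies gave. The mean level of Kit, a progenitor receptor, fell from 62.2 CPM (UMIs per 1000000) in S0-low to 2.64 in S4/S5, and Tfrc, which codes for CD71, was lowest in S0-low at 95.6 and highest in S2 at 334 CPM. Cells rich in markers of other cell types were left out of the next counts. S0-low also held mRNA of the myeloid markers at 3.88 and of the early progenitor markers at 5.32 UMIs per cell, against 0.893 or less and 1.24 or less in the later stages. All cells are from 1 library of pooled embryos, so there is no replicate error and no p-value is given. Intervals are 95% intervals for counting error only, and a difference whose interval excludes no change may still lie within the spread between animals.

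Because globin fills most of the late libraries, levels were computed on a pair of scales, and the second is given wherever it changes what the stages show. The mean level is the mean over cells of CPM, the UMIs of a gene per 1000000 UMIs of the cell. The non-globin level uses the UMIs left after globin genes are removed. Both are means that weight every cell alike, whatever its depth. Levels of single members were not computed from summed non-globin UMIs, so their direction on the non-globin scale holds for means over cells. Transcript length plays no part in a 3′ count. UMIs per cell are given as well, since a smaller share of the cell's RNA need not mean fewer molecules. They count captured molecules and also vary with the depth of a stage, so they do not measure the molecules in a cell.

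The 8 chaperones together fell steeply. They made up 1.22% of all UMIs in S0-low, 1.30% at S0-medium, 1.18% in S1, 0.716% in S2, 0.341% in S3 and 0.194% in S4/S5. As a share of non-globin UMIs the fall ran from 1.31% in S0-medium to 0.547% in S3 and stopped there, with 0.539% in S4/S5, while the mean over cells on that scale went from 4115 to 4716 CPM. Per cell, 133.8 chaperone UMIs in S0-medium became 8.33 in S4/S5. The fall was therefore present on all 3 scales up to S3, and from S3 to S4/S5 only where globin was counted or UMIs were taken per cell.

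**Figure D1:**
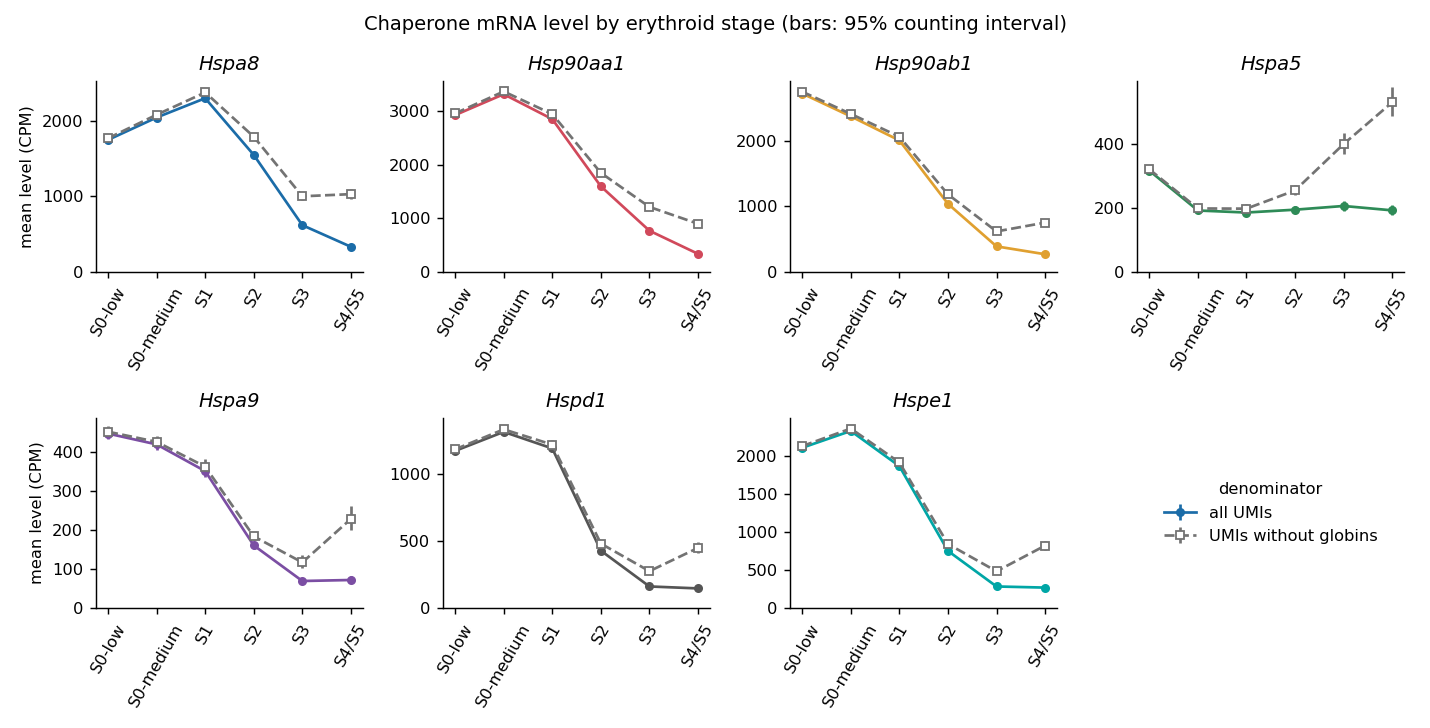
Mean level (CPM, y axis) of 7 chaperones in the 6 stages (x axis), with all UMIs (filled circles) or UMIs without globins (open squares) as the denominator and 95% counting intervals as bars. By all UMIs, Hspa8 is highest in S1 at 2305, Hspa5 stays between 186 and 206 from S1 to S3, and the other 5 fall after S0-low or S0-medium.

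Hspa8 (chr9:40801276-40805202, RefSeq on GRCm38.p6), the constitutive cytosolic Hsp70, peaked later than the Hsp90 and mitochondrial members. Its mean level was 1752 CPM in S0-low, 2049 at S0-medium, 2305 in S1, 1552 in S2, 619 in S3 and 331 in S4/S5. The widest counting interval among these spanned 5.67% of the value on each side. S1 exceeded S0-medium by a ratio of 1.12 (1.10 to 1.15), and S0-medium exceeded S0-low by 1.17 (1.145 to 1.195). The level in S1 was 6.95 times that in S4/S5 (6.56 to 7.38), and 2.31 times on the non-globin scale (2.17 to 2.46). On that scale the last step was flat, with 1002 CPM in S3 and 1031 in S4/S5.

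Hspa1b (chr17:34956429-34959238), the stress-inducible cytosolic Hsp70, was close to undetected. It had 8 UMIs in S0-low, 3 at S0-medium, 5 in S1, 2 in S2, 2 in S3 and 1 in S4/S5, in 19 of the 6208 cells (0.306%). Its mean level lay between 0.221 and 0.926 CPM, against 331 or more for Hspa8, and no change between stages was detectable at this depth. The neighbouring copy Hspa1a had 15 UMIs over the 6 stages, and how reads shared by the 2 copies were counted is not given in the sources used here.

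The start of Hspa1b is shown because the gene is a known heat-shock target and had few UMIs in these cells. The 250 bases before its start are at chr17:34959239-34959488 and those of Hspa1a at chr17:34972157-34972406, both on the minus strand of GRCm38.p6 and both taken from RefSeq. Capitals mark GAANNTTC or TTCNNGAA, pairs of the inverted units that heat-shock factors bind, searched on both strands.
Hspa1b: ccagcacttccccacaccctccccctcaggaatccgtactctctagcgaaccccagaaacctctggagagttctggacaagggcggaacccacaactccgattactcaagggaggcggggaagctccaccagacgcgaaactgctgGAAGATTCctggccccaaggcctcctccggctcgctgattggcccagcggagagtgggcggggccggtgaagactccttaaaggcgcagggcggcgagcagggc
Hspa1a: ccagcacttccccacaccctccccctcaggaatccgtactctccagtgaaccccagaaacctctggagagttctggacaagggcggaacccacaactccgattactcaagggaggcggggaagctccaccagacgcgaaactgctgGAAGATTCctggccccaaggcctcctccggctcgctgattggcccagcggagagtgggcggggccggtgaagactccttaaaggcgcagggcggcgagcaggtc
The 2 sequences are identical at 247 of 250 bases. Either pair was found in 15.1% of all 32851 promoters of the table, so a match is common.

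The Hsp90 pair had the most UMIs of the members, 121208 for Hsp90aa1 and 91506 for Hsp90ab1 over the 6 stages. Hsp90aa1 (chr12:110691036-110696395), the inducible cytosolic form, had a mean level of 2930 CPM in S0-low, 3320 at S0-medium, 2854 in S1, 1597 in S2, 767 in S3 and 335 in S4/S5. Hsp90ab1 (chr17:45567778-45573261), the constitutive form, went from 2730 in S0-low to 2380, 2012, 1041, 389 and 268 in the later stages. On this scale Hsp90ab1 was lower at every step while Hsp90aa1 was first higher by a ratio of 1.13 (1.11 to 1.15). From its highest stage to S4/S5 the mean level of Hsp90aa1 differed 9.92-fold (9.38 to 10.5) and that of Hsp90ab1 10.2-fold (9.56 to 10.8). The same spans were 3.75-fold (3.52 to 4.00) and 3.67-fold (3.42 to 3.93) on the non-globin scale. There the last step of Hsp90ab1 turned upward in means over cells, from 618 CPM in S3 to 752 in S4/S5. The ratio was 1.22 (1.12 to 1.33), while Hsp90aa1 still went from 1212 to 898. With all UMIs as the denominator the Hsp90ab1 ratio was 0.690 from mean levels and 0.587 from summed UMIs. It was not computed from summed non-globin UMIs, so the rise holds for means over cells only. With cells thinned to equal depth, the variance of Hsp90ab1 counts in S4/S5 was 4.23 times their mean. The interval covers counting error only and leaves out this spread between cells. Per cell, Hsp90ab1 had 21.8 UMIs in S0-low and 26.7 at S0-medium, so its first step was upward by captured UMIs. Median depth rose over the same step, from 6146 to 10282 UMIs per cell. The widest interval of a stage spanned 5.53% and 6.24% of the value on each side.

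The balance within the pair changed. Hsp90aa1 supplied 52.9% of the UMIs of both genes in S0-low (exact 52.5% to 53.2%), 58.5% at S0-medium, 58.7% in S1, 59.5% in S2, 64.2% in S3 (63.1% to 65.3%) and 55.7% in S4/S5 (53.9% to 57.5%). This share does not depend on the globin denominator. It was lowest in S0-low and highest in S3, and the shares in S0-medium and S1 lay inside each other's intervals.

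The 3 mitochondrial chaperones were highest in S0-low or S0-medium, before the S1 peak of Hspa8. Hspa9 (chr18:34937414-34954351), the mitochondrial Hsp70 that pulls imported proteins into the matrix, had mean levels of 446, 419, 350, 161, 70.0 and 72.6 CPM from S0-low to S4/S5. Hspd1, which forms the Hsp60 ring, had 1176, 1318, 1194, 431, 164 and 149. Hspe1, its co-chaperonin, had 2103, 2323, 1863, 753, 288 and 273. In all 3 the main drop lay between S1 and S3, and their mean levels in S3 and S4/S5 were within counting error of each other. On the non-globin scale the last step went up instead, from 117 to 229 CPM for Hspa9, from 278 to 452 for Hspd1 and from 486 to 822 for Hspe1. The mean level at the highest stage was 6.15 times that in S4/S5 for Hspa9 (5.44 to 6.95), and 1.97 times without globin (1.73 to 2.26). Hspa9, with the fewest UMIs of the 3, had the widest interval of a stage, 12.2% of the value on each side.

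Hspd1 and Hspe1 stayed in nearly fixed proportion while their mean levels differed 8.82-fold and 8.52-fold between S0-medium and S4/S5, or 2.96-fold and 2.86-fold on the non-globin scale. Hspd1 made up 37.1% of their summed UMIs in S0-low, 37.3% at S0-medium, 39.9% in S1, 37.0% in S2, 35.4% in S3 and 35.1% in S4/S5. Only the S1 share stood clear of the shares in S0-low, S0-medium and S2, with an exact interval of 39.2% to 40.6%. In a comparison of shapes over the 6 stages (the root mean square difference of centred log2 levels), the Hspd1 profile lay 0.067 from that of Hspe1, the smallest distance between any 2 members. RefSeq names 23 pseudogenes for Hspd1 and 7 for Hspe1, and whether reads from these copies affected the counts was not tested.

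The 2 genes sit head to head. Hspe1 (chr1:55088148-55091317) reads rightward from 55088148 and Hspd1 (chr1:55077833-55088243) reads leftward, with RefSeq starts at 55087932 and 55088243. The 215 bases between the left Hspd1 start and the Hspe1 start (chr1:55087933-55088147, plus strand, GRCm38.p6, RefSeq) are shown because the 2 profiles were the most similar among the members. They lie before Hspe1 and before the left Hspd1 start, but inside Hspd1 as read from its right start. Capitals mark the heat-shock element pairs as above.
Hspd1-Hspe1: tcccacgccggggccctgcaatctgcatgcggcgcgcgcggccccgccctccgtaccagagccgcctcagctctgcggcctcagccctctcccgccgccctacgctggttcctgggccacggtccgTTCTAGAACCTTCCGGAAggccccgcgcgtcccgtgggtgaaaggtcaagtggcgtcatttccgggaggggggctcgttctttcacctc
This stretch holds 3 overlapping pairs, and a run of 3 units (GAANNTTCNNGAA or the same with its units inverted) was present in 0.603% of all promoters. The Hspa5 window of the same table held none of these pairs, and promoters of Hspa8, Hsp90aa1, Hsp90ab1 and Hspa9 were not analysed here.

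Hspa5 (chr2:34772090-34776529), also called BiP, followed a course of its own. Its mean level was 318 CPM in S0-low, 192 at S0-medium, 186 in S1, 195 in S2, 206 in S3 and 193 in S4/S5. From S0-medium on, each step stayed within counting error, with ratios of 0.967 (0.893 to 1.05), 1.05 (0.964 to 1.14), 1.06 (0.968 to 1.16) and 0.933 (0.839 to 1.04). Without globin in the denominator the level instead climbed from 198 CPM in S1 to 255, 401 and 532 in S2, S3 and S4/S5. Per cell it fell from 1.98 UMIs in S1 to 0.761 in S4/S5.

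The high value in S0-low came with hepatocyte markers. S0-low held 110 cells rich in mRNA of hepatocyte genes such as Alb and Afp, against 0 to 3 in each other stage (at least 10 UMIs and over 1% of the cell's UMIs from 8 genes), and Hspa5 stood at 1535 CPM in those cells (1453 to 1622). Without the 123 marker cells of any type, Hspa5 in S0-low was 216 CPM (206 to 227), and Hsp90aa1, Hspa8 and Hspe1 were 3051, 1740 and 2101. Hspa5 was the member that moved most when these cells were left out.

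The start of Hspa5 is shown because this was the member whose share of the mRNA did not fall after S0-medium. The 250 bases before it lie at chr2:34771840-34772089 (plus strand, GRCm38.p6, RefSeq). Capitals mark a match to the endoplasmic reticulum stress element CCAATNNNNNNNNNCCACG.
Hspa5: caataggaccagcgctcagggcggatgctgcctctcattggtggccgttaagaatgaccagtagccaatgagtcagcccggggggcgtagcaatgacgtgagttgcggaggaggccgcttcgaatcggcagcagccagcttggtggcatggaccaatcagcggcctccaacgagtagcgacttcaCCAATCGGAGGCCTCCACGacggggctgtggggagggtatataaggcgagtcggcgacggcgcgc
This element was present in 39 of 32851 promoters (0.119%), and among the 5 promoters of members in the table it was found in that of Hspa5 alone.

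Steps between neighbouring stages were compared with all genes that had at least 50 UMIs over the 2 stages. A change of 1.5-fold or more was counted, and 7 members passed the UMI limit in each step. From S0-low to S0-medium the mean levels of the cytosolic and mitochondrial chaperones tested changed by less than 1.5-fold. Hspa5 was the 1 member lower by 1.5-fold, at a ratio of 0.606 (0.570 to 0.643), with no member higher. Among all 9834 genes 21.8% were lower and 5.67% higher. Without the marker cells the Hspa5 call was lost.

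From S0-medium to S1 no member changed by 1.5-fold, where 2.98% of 8659 genes were higher and 11.2% lower. The ratios ran from 0.802 (0.783 to 0.821) for Hspe1 to 1.12 for Hspa8. Hspa8 rose in this step while the other cytosolic and mitochondrial members fell slightly.

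The step from S1 to S2 split the members. Of the 7, 5 were lower by 1.5-fold or more (Hsp90aa1, Hsp90ab1, Hspa9, Hspd1 and Hspe1) and none was higher, beside 38.9% of 8217 genes lower and 5.33% higher. Hspd1 had the smallest ratio, 0.361 (0.347 to 0.375), and Hspe1 followed at 0.404 (0.392 to 0.417). Hspa8 lay just outside the limit at 0.673 (0.657 to 0.690), and Hspa5 did not fall. These calls depend on the gates: with log10 scaling of the antibody counts only Hspe1 stayed past the limit, at 0.652, and Hspa8 stood at 1.05. The member median was 0.518, against 0.733 over all genes tested. Without globin the same count of 5 lower members stood beside 26.5% of genes lower and 9.57% higher, with a member median of 0.573 against 0.843.

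From S2 to S3 the cytosolic and mitochondrial members fell over the same range. All members tested except Hspa5 were lower, 6 of 7, where 63.5% of 7602 genes were lower and 4.01% higher. The ratios of the 6 ran from 0.373 for Hsp90ab1 to 0.480 for Hsp90aa1, with an overall median of 0.587 for all genes. Without globin 6 members were still lower and Hspa5 was higher at 1.57 (1.42 to 1.73), beside 26.7% of genes lower and 10.9% higher.

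From S3 to S4/S5 the members split again. Only Hspa8, at 0.536 (0.501 to 0.573), and Hsp90aa1, at 0.436 (0.409 to 0.465), were lower by 1.5-fold, 2 of 7 members, while 72.4% of 5556 genes were lower and 1.15% higher. The member median was 0.911 and that of all genes 0.532, so Hspa8 lay at the median gene, Hsp90aa1 below it and the other 5 above. Without globin Hsp90aa1, at 0.741 (0.689 to 0.797), was again below the median of all genes, 0.883. On that scale no member was lower and 3 were higher, beside 22.6% of genes lower and 10.5% higher. The 3 were Hspa9 at 1.95 (1.62 to 2.34), Hspe1 at 1.69 (1.54 to 1.86) and Hspd1 at 1.62 (1.43 to 1.84). These ratios are of means over cells. As a share of summed non-globin UMIs the 8 members together did not rise, at 0.547% in S3 and 0.539% in S4/S5. How cells were averaged mattered for the 3 with all UMIs as the denominator. There the ratios of mean levels were 1.04 for Hspa9, 0.948 for Hspe1 and 0.911 for Hspd1. From summed UMIs they were lower, at 0.870, 0.749 and 0.741. Ratios of single members were not computed from summed non-globin UMIs, so the 3 higher calls hold for means over cells only.

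Hepatocyte mRNA outside the hepatocyte-rich cells moved with this last step. With marker cells left out, mRNA of the 8 hepatocyte markers was found at 2.66 UMIs per cell in S3 and 3.12 in S4/S5, close to the 2.36 to 2.70 in S0-medium to S2, although none of these cells is rich in it. As a share of non-globin UMIs the hepatocyte list rose from 800 CPM in S3 to 2019 in S4/S5, further than any member, while the 8 members summed fell from 18.0 to 8.33 UMIs per cell. The part of this in the S4/S5 levels of the members was not tested.

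Over the whole span from S0-low to S3 all 7 members tested were lower by 1.5-fold, but 79.4% of 9407 genes were lower too and 7.93% higher. The folds were 7.31 for Hspe1, 7.17 for Hspd1, 7.03 for Hsp90ab1, 6.37 for Hspa9, 3.82 for Hsp90aa1, 2.83 for Hspa8 and 1.54 for Hspa5. The Hspa5 call rests on which cells are in S0-low. Without the marker cells Hspa5 there was 216 CPM, beside 206 in all S3 cells. Under other choices of cells or gates its ratio, 0.650 here, reached 0.951. Without globin 6 of 7 were lower by 1.5-fold, beside 61.9% of genes lower and 14.7% higher. Hspa5 stood at 1.25 (1.14 to 1.36) on that scale, short of 1.5-fold. That ratio is of means over cells, with the marker cells of S0-low included. It was not computed from summed non-globin UMIs, and by UMIs per cell Hspa5 was lower, at 0.371. The member median was 0.157 with globin and 0.260 without, against 0.310 and 0.511 for all genes.

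**Figure D2:**
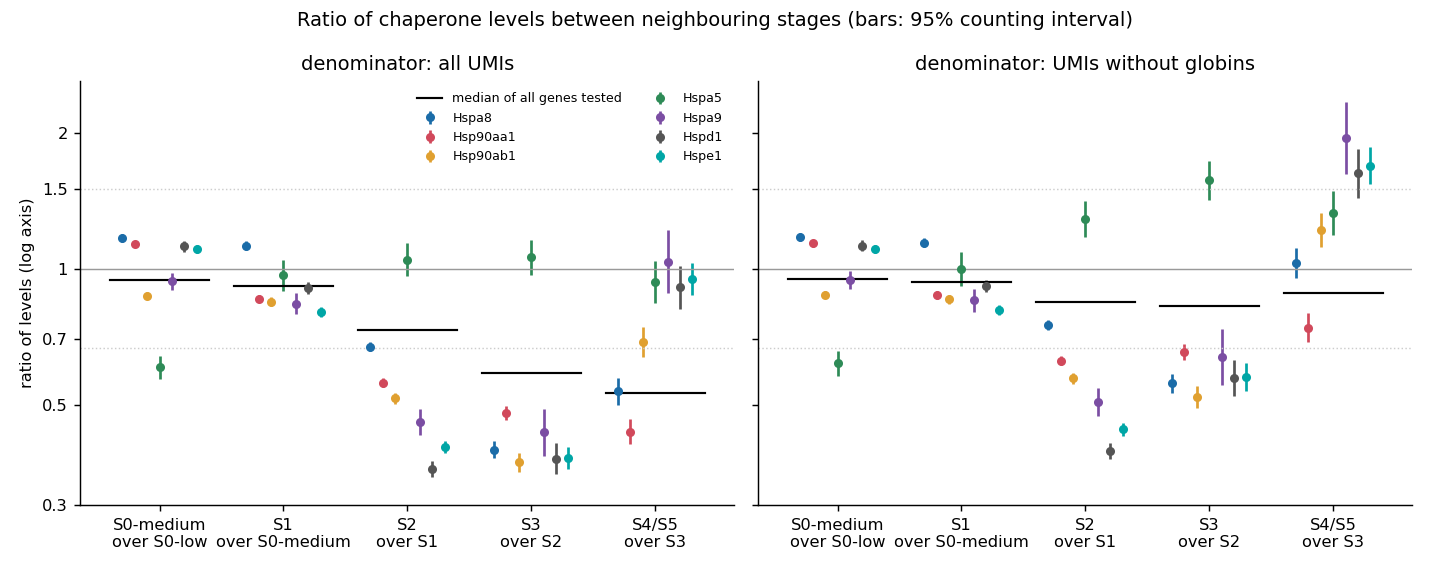
Ratio of levels between neighbouring stages (log y axis) for 7 chaperones, with all UMIs (left) or UMIs without globins (right) as the denominator, 95% counting intervals as bars, black lines for the median of all genes tested and dotted lines at a change of 1.5-fold. In S2 over S1 and S3 over S2 all members but Hspa5 lie below the black lines, and in S4/S5 over S3 most lie at or above them.

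CD71 was then used as a continuous measure inside the low-Ter119 cells, which were divided into 10 groups of equal size with the marker cells left out, a choice made after the levels had been seen. The 4 abundant chaperones took different courses. Hspe1 rose early, from 1288 CPM in the lowest group to 2598 in group 4, and then fell to 1720 in group 10. Hsp90aa1 rose from 2218 to 3529 in group 5 and fell to 2696. Hspd1 followed Hspe1 less steeply, from 900 to 1363 in group 5 and 1109 in group 10.

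Hsp90ab1 and Hspa8 showed no such early rise. Hsp90ab1 went from 2954 in the lowest to 1893 CPM in the highest group. Hspa8 lay between 1621 and 1784 in the first 5 groups and rose to 2330 in the last. Hspa9 lay at 387 in the lowest group, 475 in group 3 and 334 in group 10, and Hspa5 drifted from 241 to 170. The lowest group was also the shallowest, with a median of 4142 UMIs per cell against 10047 in the highest, and its globin share was 0.990% against 3.52%. By their CD71 the lowest groups are S0-low cells. Without the marker cells S0-low still held myeloid markers at 3.88 and early progenitor markers at 5.32 UMIs per cell. The part of this mixture of cells in the early courses was not tested.

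**Figure D3:**
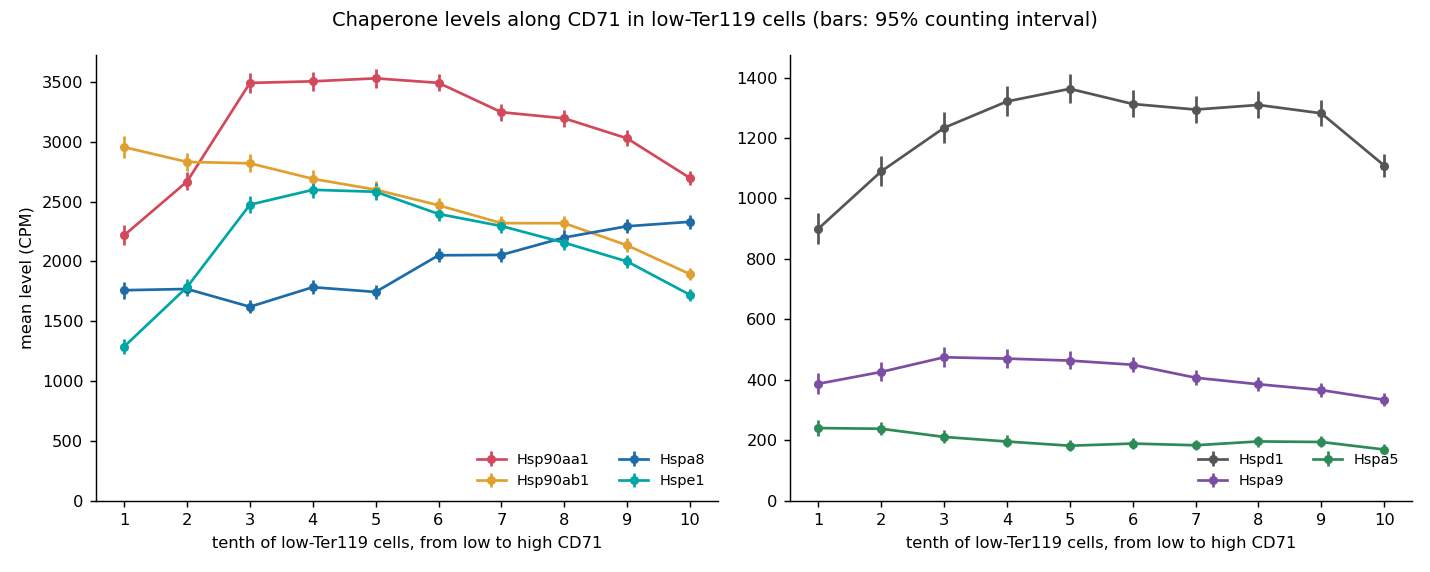
Mean level (CPM, y axis) of 7 chaperones in 10 equal groups of low-Ter119 cells ordered by CD71 (x axis), marker cells left out, with 95% counting intervals. Hsp90aa1 and Hspe1 rise over the first groups and then fall, Hsp90ab1 falls from 2954 to 1893 and Hspa8 rises to 2330.

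High-Ter119 cells were divided into 5 equal groups by CD71 in the same way. From the highest to the lowest CD71 group the mean level of Hspa8 went from 790 to 544, 376, 303 and 337 CPM, that of Hsp90aa1 from 948 to 673, 458, 371 and 269 and that of Hsp90ab1 from 466 to 353, 279, 287 and 246. Hspe1 lay between 250 and 327, Hspa9 between 60.6 and 82.4 and Hspa5 between 164 and 221 with no steady course. Globin went from 31.3% to 70.9% of the UMIs along the same groups. With globin removed, Hsp90aa1 alone among these ended lower, going from 1378 to 927 CPM. The non-globin level of Hspa8 went from 1137 to 952, 873, 888 and 1235, and that of Hsp90ab1 from 665 to 605, 618, 696 and 851. Hspe1 went from 477 to 890, Hspa9 from 121 to 266 and Hspa5 from 350 to 499.9 on that scale, so the direction of most members here depends on the denominator.

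Shares between the Hsp70 forms changed with stage, and they do not depend on globin. Each share compares single genes and does not stand for a whole compartment. Hspa5 made up 16.0% of the UMIs of Hspa5 and Hspa8 in S0-low, 8.73% at S0-medium, 7.45% in S1, 9.17% in S2, 19.5% in S3 (18.3% to 20.7%) and 31.7% in S4/S5 (29.7% to 33.7%). The S0-low share includes marker cells: without them 2268 UMIs of Hspa5 and 19388 of Hspa8 were left, of 4190 and 22046. Hspa9 made up 19.8% of the UMIs of Hspa9 and Hspa8 in S0-low, 17.5% at S0-medium and 14.1% in S1. It made up 10.3% in S2, 11.2% in S3 and 18.5% in S4/S5. Beside Hspa8, the share of Hspa5 was thus lowest in S1 and that of Hspa9 lowest in S2, and both were higher in S0-low and S4/S5.

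**Figure D4:**
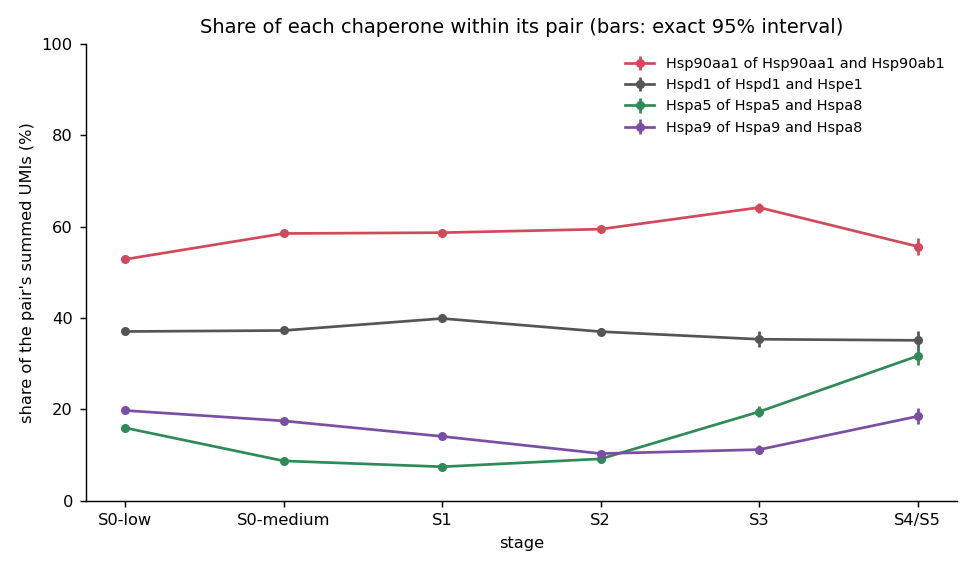
Share of 1 chaperone in the summed UMIs of a pair (%, y axis) by stage (x axis), with exact 95% intervals as bars. The Hspd1 share stays between 35.1% and 39.9% while the share of Hspa5 beside Hspa8 goes from 7.45% in S1 to 31.7% in S4/S5.

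Cells of a stage differed more for some members than for others. After each cell was thinned to 2000 UMIs, a Hspa8 UMI was found in 90.4% of S0-low cells, 94.3% of S1 cells and 44.7% of S4/S5 cells (98.1%, 99.2% and 66.7% before thinning). The same shares for Hspd1 were 84.6%, 84.6% and 25.3%, and for Hspa9 56.2%, 49.2% and 11.8%. In S1 the squared coefficient of variation of thinned counts beyond that of Poisson counting was 0.293 for Hspa8 and between 0.129 and 0.201 for Hsp90aa1, Hsp90ab1, Hspa9, Hspd1 and Hspe1. Hspa5, with few UMIs per cell, stood at 0.560. Since hepatocyte mRNA was found in all 6 stages and every cell type uses these genes, no cell type that lacks them was available as a background.

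The cells of each stage were then ranked and split into 4 groups of equal size by mRNA of 24 S-phase genes, such as Pcna and Mcm2, and of 24 G2/M genes, such as Top2a and Ccnb1. This was done after the levels had been seen and is a description of cells within 1 library. Hspa8 was higher in the group of cells richest in S-phase mRNA than in the poorest group at every stage from S0-low to S3. In S0-medium the non-globin level was 1366 CPM in the poorest and 2806 in the richest group, a ratio of 2.05 (1.96 to 2.15). The ratios in S0-low, S1, S2 and S3 were 1.43, 1.47, 1.80 and 2.28, and that in S4/S5, 1.13 (0.944 to 1.36), did not clear counting error.

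Hspe1 went the other way from Hspa8 in the middle stages. Its ratio of the richest to the poorest group by S-phase mRNA was 0.751 in S0-medium, 0.633 in S1 and 0.490 (0.446 to 0.538) in S2, where 952 CPM became 467. Hsp90ab1 stayed between 0.865 and 1.13 over all 6 stages. Median depth differed between the groups, for example 9076 UMIs in the poorest and 7233 in the richest group of S0-medium.

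By G2/M mRNA, every member compared except Hspa5 was lower in the richest group of S2 cells. All genes were not compared in this split or in that by S-phase mRNA. Whether these differences are particular to the chaperones is therefore not known. There Hspd1 had a ratio of 0.365 (0.322 to 0.413), Hspe1 0.386 (0.351 to 0.425), Hspa9 0.459 (0.375 to 0.561) and Hspa8 0.523 (0.492 to 0.556). Hsp90ab1 had 0.553 (0.513 to 0.595) and Hsp90aa1 0.824 (0.779 to 0.872), while Hspa5 had 1.03 (0.873 to 1.22). In S3 and S4/S5 Hsp90aa1 was higher in G2/M-rich cells, as it was in S-phase-rich cells, with ratios of 1.30 (1.14 to 1.48) and 1.43 (1.19 to 1.70). The groups of a stage can also differ in how far the cells have matured, and that part was not tested.

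**Figure D5:**
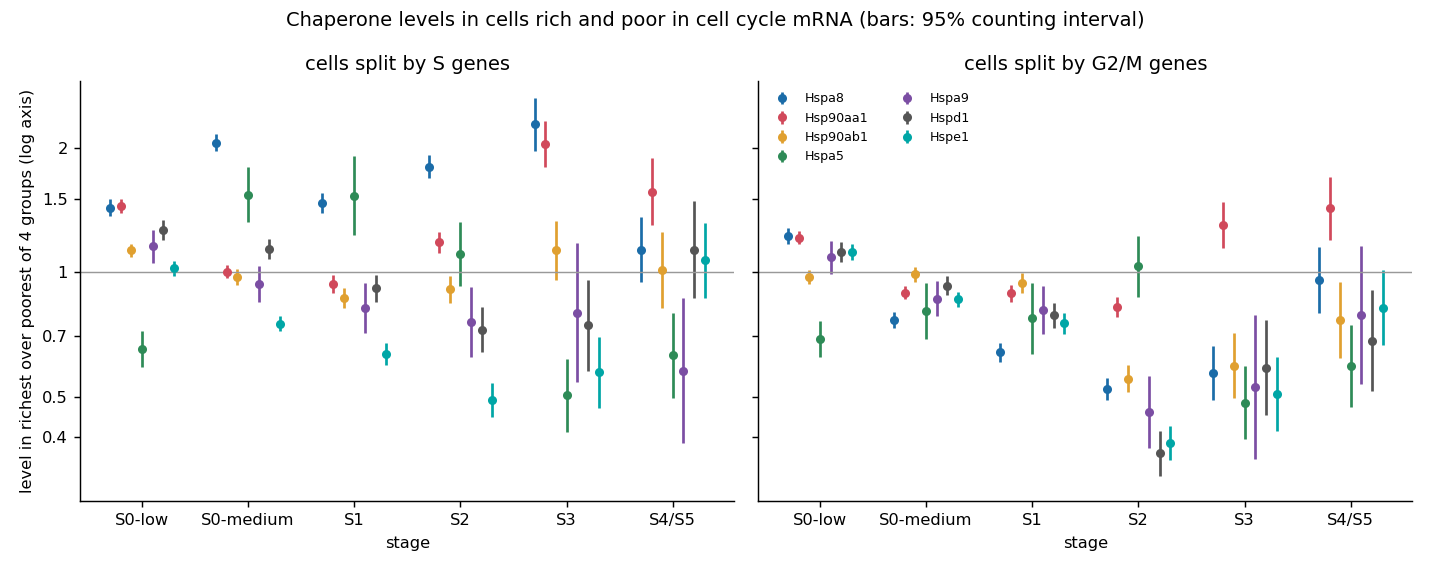
Non-globin level of 7 chaperones in the group of cells richest in S-phase (left) or G2/M (right) mRNA over the poorest of 4 equal groups (log y axis) within each stage (x axis), with 95% counting intervals. Hspa8 lies above 1 by S-phase mRNA from S0-low to S3, and Hspd1, Hspe1 and Hspa9 lie below 0.5 by G2/M mRNA in S2.

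Lists of the wider chaperone network were set beside the same shares of all genes. Cofactors of cytosolic Hsp70, which load or unload its clients, had medians slightly below those of all genes in the steps from S1 to S3. Of 16 tested 7 were lower by 1.5-fold in S2 over S1, beside 38.9% of all genes, and of 15 tested 12 were lower in S3 over S2, beside 63.5%, with none higher. The medians were 0.683 and 0.551 against 0.733 and 0.587 over all genes tested. Without globin 6 of 16 were lower in S2 over S1, beside 26.5% of all genes, and 3 of 15 were lower and 1 higher in S3 over S2, beside 26.7% and 10.9%. Dnajc2, a J-protein at the ribosome, had the largest change of the list from S0-low to S3, from 382 to 28.2 CPM. Hsph1, a nucleotide exchange factor, went from 103 to 21.8 over the same span.

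Cofactors of Hsp90 stood near all genes in S2 over S1. Of 12 tested, 5 were lower in that step, beside 38.9% of all genes, and 11 in S3 over S2, beside 63.5%, with none higher, and their medians were 0.694 and 0.541, against the same 0.733 and 0.587. Fkbp4, an immunophilin of hormone receptor complexes, went from 426 CPM in S1 to 201 in S2 and 92.5 in S3. Without globin the counts dropped to 1 and 3 of 12, beside 26.5% and 26.7% of all genes.

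Mitochondrial folding factors and proteases held 1 gene that rose late. Hscb, a J-protein that serves iron-sulphur cluster assembly with Hspa9, first fell from 56.8 CPM in S0-low to 41.3 in S0-medium. It then went from 30.05 CPM in S1 to 51.1 in S2, 115 in S3 and 138 in S4/S5. Of the 12 tested it was the 1 gene higher in S3 over S2, at 2.25 (1.93 to 2.62), while 9 were lower, among them Lonp1, Trap1 and Grpel2. Of all genes 4.01% were higher and 63.5% lower in this step, and the median of the list was 0.512 against 0.587 for all genes. Without globin 3 of the 12 were lower and Hscb was the 1 higher, beside 26.7% and 10.9% of all genes. Hspa9 itself fell in that step, at 0.435 (0.386 to 0.491).

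Chaperones of the endoplasmic reticulum took mixed courses. Of 16 tested 9 were lower in S0-medium over S0-low, beside 21.8% of all genes, and 10 in S2 over S1, beside 38.9%. Of 14 tested 8 were lower in S3 over S2, beside 63.5%, and none was higher in any of these steps. The medians were 0.630, 0.646 and 0.634, against 0.944, 0.733 and 0.587 for all genes. Without globin 4 were lower and 2 higher in S2 over S1, beside 26.5% and 9.57% of all genes, and 0 lower and 2 higher in S3 over S2, beside 26.7% and 10.9%. Hsp90b1, the Hsp90 of this compartment, went from 486 CPM in S0-low to 68.3 in S3, and P4hb, a disulphide isomerase, from 168 to 20.3. Dnajb9, a J-protein of the endoplasmic reticulum, dropped early like Hspa5, from 10.6 CPM in S0-low to 3.69 at S0-medium, and stood between 5.44 and 8.20 from S1 on. The hepatocyte cells of S0-low touch this list in the first step, and their part was not tested for it.

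Subunits of the cytosolic chaperonin TRiC and of prefoldin, which hands it actin and tubulin, were compared in the late steps. All 7 TRiC subunits tested and 4 of 6 prefoldin subunits were lower in S3 over S2, beside 63.5% of all genes. The medians were 0.509 and 0.577, against 0.587 for all genes. In S4/S5 over S3 again all 7 and 4 of 6 were lower, beside 72.4%, with medians of 0.564 and 0.568, where only 2 of 7 members were lower and their median was 0.911. Vbp1, a prefoldin subunit, was higher late, at 116 CPM in S0-low and 217 in S3. Without globin 2 TRiC subunits and no prefoldin subunit were lower in S3 over S2, beside 26.7% of all genes. In S4/S5 over S3 without globin no subunit of either and no member was lower, beside 22.6% of all genes. The medians there were 0.956 for TRiC, 0.990 for prefoldin and 1.33 for the members, against 0.883 for all genes.

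Hsf1 fell while Ubb rose. Hsf1, the main heat-shock transcription factor, went from 50.2 CPM in S0-low to 41.9 in S1, 18.1 in S2, 7.79 in S3 and 3.26 in S4/S5. Ubb, a polyubiquitin gene of the same list, went from 1071 in S0-low to 1953 in S3 and 3085 in S4/S5. Over S0-low to S3, 3 of the 5 genes tested in this list were lower, beside 79.4% of all genes, with a median of 0.191 against 0.310 for all genes. Of the 5 small heat-shock proteins only Hspb6 and Hspb11 had enough UMIs, and Hspb11 fell from 22.5 in S0-low to 5.02 in S3.

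Genes induced when tissue is dissociated were examined as well, since Hspa8, Hsp90aa1 and Hspa1b can respond to handling. Of 17 such genes 7 or 8 had enough UMIs in a step. Dusp1 rose from 6.80 CPM in S0-low to 99.9 in S3 and then fell to 35.4, and Jun went from 7.11 in S0-low to 0.583 in S3. From S0-low to S3, 2 of 8 were higher and 4 lower, beside 7.93% and 79.4% of all genes, with a median of 0.591 against 0.310. Without globin 3 of 8 were higher and 3 lower, beside 14.7% and 61.9% of all genes. The median there was 1.06 against 0.511, so the list as a whole did not fall on that scale. The part of this response in the chaperone levels was not tested.

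Among 6338 genes with at least 500 UMIs, the closest profiles to each member were named by the same distance (log2 of CPM plus 10). With 1 added in place of 10, most of the genes named here and for Hspa5 below were replaced by others. For Hspe1 they were Npm1, a nucleolar chaperone (0.062), Hspd1, and Tomm40, the pore of mitochondrial protein import (0.082), and for Hspd1 they were Hspe1, Npm1 and Tomm40. Hspa9 was nearest to Rrs1, a ribosome assembly factor (0.060), Mettl1 and Denr. Hsp90aa1 was nearest to Sdhd, a subunit of succinate dehydrogenase (0.062), Hdgf and Tpr, and Hsp90ab1 to Uchl3, Pebp1 and Nop58. Hspa8 was nearest to Rpl5, a ribosomal protein (0.072), Cisd1 and Orc2.

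Hspa5 was nearest to Xbp1, a transcription factor of the unfolded protein response (0.070), S100a13 and Rnf13. Xbp1 stood at 47.8 CPM in S0-low and between 26.7 and 32.2 in the other stages. The S0-low values here include the hepatocyte marker cells, without which Hspa5 there was 216 CPM in place of 318. Whether the same genes are nearest without those cells was not tested. The median distance of all genes ranged from 0.560 for Hspa8 to 0.824 for Hspd1. These rest on 6 stages of 1 library and describe shape only.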

How the data were processed

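The authors mapped the cDNA reads to mm10 with Cell Ranger and deposited the raw UMI counts of each gene in each cell. The limits on genes and mitochondrial UMIs had not yet been applied, and 508 cells failed them here. The shallowest of the 7863 cells held 2510 UMIs, so barcodes below that depth are absent from the counts. Levels of the late stages, with a median of 3949 UMIs in S4/S5, therefore leave out any shallower cells. They also deposited counts per antibody and cell, and whether identical antibody molecules were collapsed is not stated. Here the limits were 300 to 5000 genes and 9% mitochondrial UMIs per cell, and doublets were removed with Scrublet (scanpy 1.11.5, expected rate 6%, 128 cells called). Antibody counts were scaled by centered log ratio and cut by k-means (scikit-learn 1.9.0), because the positions of the study's gates are not given in the sources used here. Levels carry gamma intervals, ratios intervals on the log scale, and shares exact Clopper-Pearson intervals, all for counting error only, and the code was tested on simulated data. Genes named are the 8 members, Hspa1a, Kit and Tfrc, the 3 most similar genes per member (pseudocount 10), and the listed network genes with the largest changes past 1.5-fold. Members and lists were chosen with earlier results of these data known. Positions and promoters are RefSeq GRCm38.p6, the build of mm10. All 8 members matched by symbol, and 4 had a promoter in the table.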

Additional observations from a re-analysis of the deposited data

How the results depend on the processing

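The counts of members past 1.5-fold were recomputed under other settings. From S0-medium over S0-low the 1 lower member became 0 at a fold of 2, with log10 antibody scaling, with Gaussian mixture classes, without marker cells, with a mitochondrial limit of 5% and with UMIs per cell, and members higher became 1 with log10 scaling, 1 with the mixture and 4 with UMIs per cell. In S2 over S1 the 5 lower members became 3 at a fold of 2 and 1 with log10 scaling. In S3 over S2 the non-globin denominator gave 1 higher member. In S4/S5 over S3 the 2 lower members became 1 at a fold of 2, 5 with UMIs per cell and 0 without globin, where 3 were higher. With that denominator Hspa8 in S4/S5 over S3 turned to 1.03 and Hspa5 in S3 over S0-low to 1.25, and in S4/S5 over S3 Hsp90ab1 went from 0.690 to 1.22, Hspa5 from 0.933 to 1.33, Hspd1 from 0.911 to 1.62 and Hspe1 from 0.948 to 1.69. With UMIs per cell Hsp90ab1 in S0-medium over S0-low went from 0.872 to 1.22. With log10 scaling Hspa8 in S2 over S1 moved from 0.673 to 1.05. With a pseudocount of 1, 6 of the 21 similar genes were shared with the list in the report. The cause of these shifts was not tested. With CD71 terciles, border cells left out, doublets kept, lineage-high cells kept or summed UMIs, all 12 counts stayed within 1.5 times. No paired analysis was possible because there is 1 cDNA library. Depth limits Hspa1b, and Hspa9 in S3 and S4/S5.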

Other observations

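Cells rich in markers of other lineages had chaperone mRNA levels of their own. They were grouped with no cut on stage, and 110 of the hepatocyte, 12 of the myeloid and 1 of the macrophage marker cells lay in S0-low. In 195 cells rich in hepatocyte markers Hspa5 stood at 1398 CPM (UMIs per 1000000) (1342 to 1456), and in 35 cells rich in macrophage markers such as C1qa at 1055 (910 to 1222). It was 686 (611 to 773) in 57 megakaryocyte marker cells and 422 (382 to 466) in 153 myeloid marker cells. With all UMIs as the denominator, all 4 values exceeded every erythroid stage, where the highest was 318 in S0-low, or 216 there without the marker cells. On the non-globin scale Hspa5 stood higher in the late stages, at 401 CPM in S3 (370 to 436) and 532 in S4/S5 (490 to 579). The marker cells were not computed on that scale, so the order there is not known.

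Hsp90aa1 was higher in the early erythroid stages than in all 4 groups of marker cells. It reached 1589 in hepatocyte, 1203 in myeloid, 927 in megakaryocyte and 804 in macrophage marker cells, against 3320 in S0-medium. The mitochondrial pair was lower than in S0-medium in 3 of the groups, while in hepatocyte marker cells its intervals overlapped those of S0-medium. Hspe1 was 578 in myeloid, 696 in macrophage and 712 in megakaryocyte marker cells and 2323 in S0-medium, but 2244 (2173 to 2317) in hepatocyte marker cells, above the 2103 of S0-low. Hspd1 was 1310 (1257 to 1365) in hepatocyte marker cells, against 1176 in S0-low and 1318 in S0-medium, and 329 to 528 in the other 3 groups. Hspa8 was 2350 (2141 to 2581) in macrophage and 1390 (1285 to 1506) in megakaryocyte marker cells. Of Hspa1b, 1 UMI was found in the myeloid cells and 0 in the other 3 groups. These are values of cells from 1 library, with counting error only.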
